A study of Mus musculus with 6 samples.

Results

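The 298 largest clusters of distal H3K27ac in alveolar macrophages (AMs), the phagocytes that reside in the air spaces of the lung, are described here. Peaks of the 2 Cell Signaling replicates were merged, and the merged regions that held a peak of each replicate and had a midpoint over 3 kb from every transcription start site (TSS) were kept as distal. Distal regions under 10 kb apart were joined, which gave 9108 clusters, and the members are the clusters with at least 15 kb of acetylated bases. They made up 3.27% of all clusters, and they held 12% of the distal regions (1996 of 16675) and 24.6% of the distal acetylated bases (7.59 of 30.9 Mb). The members were thus chosen by the extent of the Cell Signaling peaks, and their values in these lists are given as a description with no test.

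The cells were sorted from bronchoalveolar lavage of wild-type C57BL/6J mice aged 9 weeks, up to 200000 cells per preparation, and all samples were of this one genotype with no treatment. H3K27ac was measured by HT-ChIPmentation, in which the transposase Tn5 inserts adapters into chromatin bound on antibody beads. There were 6 samples, namely 1 Active Motif antibody library, 2 Cell Signaling antibody replicates, and 3 inputs, used only by the authors' peak caller. The labels do not say whether the 2 replicates came from separate mice. Between the Active Motif and the Cell Signaling libraries, the antibody cannot be told apart from the run, the sonication or the depth of sequencing. Cell Signaling replicate 1 gave 56175 peaks that covered 45.8 Mb and replicate 2 gave 49139 that covered 59.8 Mb, while 36364 Active Motif peaks covered 26.1 Mb.

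H3K27ac marks active promoters and enhancers, and acetylated sites that lie far from promoters are commonly read as candidate enhancers. Dense groups of enhancers are often found at genes that define a cell type, including genes of its transcription factors, whose products in turn bind many of its enhancers. In AMs, GM-CSF and TGF-β from the airway niche act through such factors, among them PPARγ with its partner RXR, C/EBPβ, PU.1 and the related BHLHE40 and BHLHE41, and the cells take up and clear surfactant lipid.

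The sequence at the strongest Cell Signaling replicate 1 summit of a cluster is shown for 6 clusters at genes of transcription factors, because these are the sites where the mark was most enriched. Each window is the plus strand of mm10, 5′ to 3′, and capitals mark any of the 17 short words searched in this work. The Tcf7l2 window (chr19:55819849-55820048) lies in an intron, and the Rxra window (chr2:27714453-27714652) in an intron 3.97 kb from the nearest TSS. The Cebpb window (chr2:167777034-167777233) lies between genes, 88.2 kb from the Cebpb TSS. Of the windows of the 2 Pparg clusters, the one at the TSS (chr6:115422387-115422586) is 0.421 kb from a TSS and the other (chr6:115480407-115480606) is in an intron 58.4 kb from it. The Bhlhe40 window (chr6:108695508-108695707) lies between genes, 34.7 kb from the Bhlhe40 TSS.
Tcf7l2: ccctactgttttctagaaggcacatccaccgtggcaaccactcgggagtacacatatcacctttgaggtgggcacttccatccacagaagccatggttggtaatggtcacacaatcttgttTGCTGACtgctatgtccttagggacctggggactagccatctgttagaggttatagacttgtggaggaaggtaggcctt
Cebpb: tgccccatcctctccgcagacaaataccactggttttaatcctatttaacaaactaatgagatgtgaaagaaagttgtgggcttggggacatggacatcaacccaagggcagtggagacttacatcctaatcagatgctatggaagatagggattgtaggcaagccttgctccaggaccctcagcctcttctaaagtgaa
Rxra: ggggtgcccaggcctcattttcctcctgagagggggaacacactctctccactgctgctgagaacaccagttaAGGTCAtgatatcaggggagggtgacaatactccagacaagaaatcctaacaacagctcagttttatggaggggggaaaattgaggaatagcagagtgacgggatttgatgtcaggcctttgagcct
Pparg cluster at the TSS: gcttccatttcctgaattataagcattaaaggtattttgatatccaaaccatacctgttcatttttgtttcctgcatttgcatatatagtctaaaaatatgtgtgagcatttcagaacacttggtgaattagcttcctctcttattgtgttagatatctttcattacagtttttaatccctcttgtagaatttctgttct
Pparg downstream cluster: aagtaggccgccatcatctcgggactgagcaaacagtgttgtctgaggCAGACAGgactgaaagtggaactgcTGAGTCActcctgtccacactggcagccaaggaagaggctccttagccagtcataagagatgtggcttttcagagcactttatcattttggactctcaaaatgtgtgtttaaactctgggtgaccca
Bhlhe40: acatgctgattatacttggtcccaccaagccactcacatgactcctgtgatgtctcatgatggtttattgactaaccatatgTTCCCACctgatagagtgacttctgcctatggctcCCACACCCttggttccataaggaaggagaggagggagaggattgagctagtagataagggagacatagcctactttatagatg
The MAF half-site TGCTGAC stands in capitals in the Tcf7l2 window and the nuclear receptor half-site AGGTCA in the Rxra window. The downstream Pparg window holds the SMAD word CAGACAG and the AP-1 word TGANTCA. The Bhlhe40 window holds the RBPJ word GTGGGAA and the KLF word GGGTGTGG, both on the minus strand. None of the words searched is in the Cebpb window or in the Pparg window at the TSS, which says only that these letters are not there. The windows shown were chosen after their values were seen. Among windows taken in the same way but not shown, those at Klf6, Abcg1, Lpl and Marco held none of the words. The one at Tgfbr2 held the STAT word TTCNNNGAA. Over all replicate 1 summits of large clusters, the words marked above were each in 1.67% (KLF) to 13.1% (AGGTCA) of 4682 windows. The share of windows with any of the words was not counted.

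Longer words are rare, so the clusters that hold one at a listed gene are shown separately, in windows of 80 bases with the word in capitals. A direct repeat of AGGTCA spaced by 1 base, the form bound by PPAR-RXR dimers, occurred 31 times in 29 of the 298 clusters, and 23 of these lay in peaks of both Cell Signaling replicates and 11 also in an Active Motif peak. The C/EBP palindrome TTGCGCAA occurred 14 times in 14 clusters, 13 of them in peaks of both replicates and 8 in all 3 libraries. The windows shown are those in peaks of both replicates in a cluster nearest to, or overlapping, a gene of the lists described further on. The repeat lay in the clusters of Mrc1 (chr2:14238741-14238820, intronic), Cebpb (chr2:167779743-167779822, intergenic) and Ctsd (chr7:142397535-142397614, intergenic). The palindrome lay in those of Nfe2l2 (chr2:75703411-75703490, intronic), Abca1 (chr4:53124948-53125027, intronic) and Ccl6 (chr11:83603551-83603630, intergenic).
Mrc1 repeat: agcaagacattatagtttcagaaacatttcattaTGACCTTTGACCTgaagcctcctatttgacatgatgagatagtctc
Cebpb repeat: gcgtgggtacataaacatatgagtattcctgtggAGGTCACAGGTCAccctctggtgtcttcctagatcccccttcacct
Ctsd repeat: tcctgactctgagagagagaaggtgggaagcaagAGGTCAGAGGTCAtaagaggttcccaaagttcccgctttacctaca
Nfe2l2 palindrome: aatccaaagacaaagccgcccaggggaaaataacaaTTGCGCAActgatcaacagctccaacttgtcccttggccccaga
Abca1 palindrome: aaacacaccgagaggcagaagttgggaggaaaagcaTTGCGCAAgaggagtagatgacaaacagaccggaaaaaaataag
Ccl6 palindrome: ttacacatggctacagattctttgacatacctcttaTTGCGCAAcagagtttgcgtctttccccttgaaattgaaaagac
The 3 palindromes and the Ctsd repeat lay in an Active Motif peak, and the Mrc1 and Cebpb repeats did not.

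The 298 clusters held between 15.05 and 88.5 kb of acetylated bases, with a median of 20.8 kb and quartiles of 17.5 and 29.0 kb. The other 8810 clusters had a median of 1.6 kb. From end to end, the large clusters spanned 15.9 to 119.81 kb, with a median of 34.4 kb. A large cluster joined a median of 6 regions and at most 22, and 64 of the 298 joined 10 or more. In 123 of them a single region made up over 50% of the acetylated bases, and in 82 a single region reached 15 kb alone. The smallest members and the largest clusters outside the threshold were nearly the same size. The nearest inside were at Rac1 (15.05 kb), Stk17b (15.05 kb) and Ankrd11 (15.1 kb), and the nearest outside were at Lrp12 (14.98 kb), Lyn (14.97 kb) and Ggta1 (14.97 kb). Lrp12, Lyn and Ggta1 each also had another cluster inside the threshold.

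**Figure D1:**
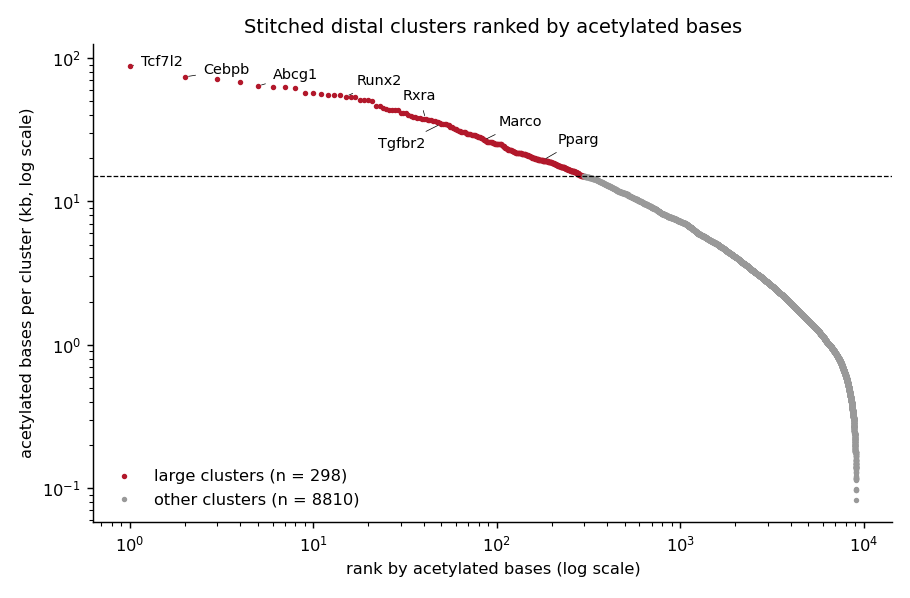
Acetylated bases per stitched distal cluster (kb, log scale) against rank (log scale), 1 point per cluster. The 298 large clusters (red) lie above the dashed line at 15 kb and the 8810 other clusters (grey) below it, and 8 clusters are named by the nearest protein-coding TSS to the midpoint.

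The 20 clusters with the most acetylated bases included transcriptional regulators, lipid genes, surface receptors and genes of the cytoskeleton and of signalling. At the top stood Tcf7l2, a transcription factor of the Wnt pathway, with 88.5 kb in 17 regions (chr19:55766163-55878031). The Cell Signaling lists covered 65.7 kb of it in replicate 1 and 88.4 kb in replicate 2, and the Active Motif list 33.5 kb. All of its regions lay within the Tcf7l2 gene body and covered no protein-coding TSS.

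Next came an intergenic cluster with Cebpb, the gene of C/EBPβ, as its nearest gene (chr2:167699226-167779910), with 74.0 kb in 7 regions and a midpoint 50.7 kb from the TSS. Its bases were covered over 70.5 kb in replicate 1, 73.6 kb in replicate 2 and 54.3 kb in the Active Motif library, the most Active Motif bases of any cluster. Other transcriptional regulators in the first 20 were Runx2, a RUNX factor, with 53.8 kb, Ski, a repressor of SMAD signalling downstream of TGF-β, with 55.1 kb, and Zmiz1, a transcriptional coactivator, with 51.0 kb. Zfp36l2, which encodes an RNA-binding protein that promotes mRNA decay, was the nearest gene to an intergenic cluster of 51.4 kb at 92.9 kb.

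Abcg1 and Nceh1 were among the 20 too. The cluster at Abcg1, which exports cholesterol, had 63.9 kb in 13 regions (chr17:31014572-31111047), of which 50.7 kb lay in replicate 1, 63.7 kb in replicate 2 and 39.5 kb in Active Motif peaks. That at Nceh1, a cholesterol ester hydrolase, had 55.3 kb in only 3 regions (chr3:27182508-27238212), with 53.2 kb in replicate 1, 55.0 kb in replicate 2 and 47.6 kb in the Active Motif library. The 3 libraries differed least at Nceh1 among these 20. Both clusters covered the TSS of their gene, as 10 of the 20 did in all.

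Receptors and surface proteins in this group were Pdcd1lg2, the PD-1 ligand PD-L2 (63.2 kb), Tnfrsf1b, a TNF receptor (55.0 kb), Cd44, the hyaluronan receptor (53.4 kb), Adipor2, an adiponectin receptor (50.7 kb), and App, the amyloid precursor protein, with the most regions of all (56.7 kb in 22). Genes of the cytoskeleton, adhesion and small GTPases were Myh9, a non-muscle myosin heavy chain (68.0 kb), Nedd9, an adhesion scaffold (53.2 kb), Akap13, an anchor of protein kinase A (56.4 kb), and Rin3, a Rab5 exchange factor (56.8 kb). The remaining ones were nearest to Tomm20, a mitochondrial import receptor (71.0 kb), Ubash3b, a tyrosine phosphatase (62.8 kb), and Frmd4a (61.6 kb). The nearest gene was also overlapped in 18 of the 20, and 2 overlapped no gene body.

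**Figure D2:**
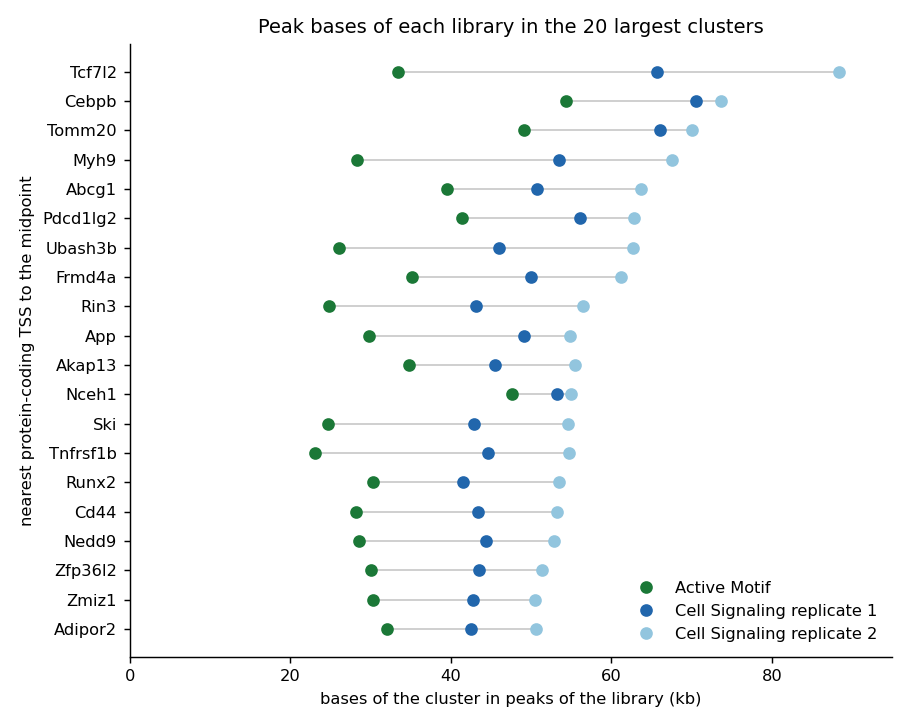
Bases (kb) of each of the 20 largest clusters, largest at the top, that lay in peaks of the Active Motif library and of the 2 Cell Signaling replicates; clusters are named by the nearest protein-coding TSS. In each of the 20 the Active Motif value is the lowest and that of replicate 2 the highest, with the narrowest gap at Nceh1 (47.6 to 55.0 kb) and a wide one at Tcf7l2 (33.5 to 88.4 kb).

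The 2 replicates did not contribute alike. Over the 298 clusters, peaks of replicate 1 covered 81.1% of the acetylated bases, peaks of replicate 2 covered 98.9%, and bases in peaks of both made up 80.002%. Replicate 1 covered fewer bases than replicate 2 in 295 of 298 clusters. In replicate 1 alone the median was 17.0 kb per cluster and 196 of the 298 reached 15 kb, and in replicate 2 alone the median was 20.5 kb and 288 reached it. The widest peak in a cluster had a median width of 6.75 kb in replicate 1, 10.5 kb in replicate 2 and 3.93 kb in the Active Motif library. The peaks of replicate 2 were thus the wider ones.

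Gene bodies held most of the acetylated bases of these clusters. Introns of protein-coding genes took 70.4%, exons 2.79% and intergenic sequence 26.8%, against 56.2%, 3.07% and 40.7% in the other clusters. Of the 298, 253 overlapped the body of a protein-coding gene, and 235 overlapped their nearest one. The midpoint lay at a median of 22.9 kb from the nearest protein-coding TSS, close to the 21.9 kb of the other clusters, and in 18 large clusters it lay over 100 kb away. Gene length was not taken into account.

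Because distance was measured from the midpoint, a wide region counted as distal while reaching into a promoter. A protein-coding TSS lay inside the acetylated bases of 101 of the 298 clusters (33.9%), against 46 of the 8810 others (0.522%), and in 1.61% of all clusters. All 5 members made of 1 region, at Ptpn12, Snx1, Prrt1, Klf6 and Tmbim1, covered such a TSS. For these clusters promoter and distal acetylation cannot be told apart. The other 197 members covered none, and several results are also given over these 197.

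The 298 clusters had 276 different nearest genes. Pik3ap1, an adaptor for PI3-kinase, Dhrs3, a retinaldehyde reductase, and Ado were nearest to 3 clusters each, and 16 genes were nearest to 2. The 3 at Pik3ap1 held 30.7, 23.5 and 15.3 kb within one stretch, and those at Dhrs3 held 36.9, 28.5 and 17.5 kb, with 2 of them over Vps13d rather than Dhrs3. One of the 3 nearest to Ado, of 15.9 kb, overlapped Egr2, a zinc finger factor of macrophages, and the others of 28.3 and 26.3 kb lay between genes. Within 50 kb of another member lay 46 of the 298, so a joining distance of 10 kb divided some domains that lie close together. Chromosome 2 held the most members (32) and X the fewest (4, or 0.234 per 10 Mb, against 1.95 per 10 Mb on chromosome 19).

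The Active Motif library took no part in choosing the clusters. All 298 held an Active Motif peak, against 5322 of the 8810 other clusters, and 61.7% of all clusters. Clusters nearest in size had one as well, 310 of 310 at 10 to 15 kb and 993 of 997 at 5 to 10 kb, against 1945 of 5194 under 2 kb. A median of 53.5% of the acetylated bases of a large cluster lay in Active Motif peaks (quartiles 44.3% and 64.2%), against 15.5% in the other clusters (quartiles 0% and 40.7%). The median was 49.9% over the 197 large clusters that cover no protein-coding TSS and 59.6% over the 101 that do. Between size classes the median was 46.7% at 10 to 15 kb, 51.6% at 15 to 20 kb, 54.3% at 20 to 30 kb and 56.2% at 30 kb or more. The medians of these 4 classes lay close together. Of the 298 clusters with most Active Motif bases, 249 (83.6%) were members. A larger cluster has more bases to cover, so this overlap depends in part on size.

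Single regions gave a different view. An Active Motif peak lay in 1213 of the 1996 regions of large clusters (60.8%, 95% Wilson interval 58.6 to 62.9%), against 7337 of the 14679 regions of other clusters (49.98%, 49.2 to 50.8%), and in 51.3% of all distal regions. Regions of large clusters were also wider, with a median of 1846 bp against 1178 bp in the others. Within classes of width the difference in the share with an Active Motif peak was gone or ran the other way. At 1 to 2 kb, 54.2% of 428 regions of large clusters had an Active Motif peak (49.5 to 58.9%), against 62.7% of 5202 regions of the others (61.4 to 64.0%). At 2 to 4 kb the shares were 91.0% of 357 (87.6 to 93.6%) against 93.9% of 2515 (92.9 to 94.7%), and below 0.5 kb 3.65% of 329 (2.10 to 6.27%) against 3.95% of 2430 (3.25 to 4.80%). At 4 to 8 kb, 332 of 333 regions of large clusters and 804 of 807 of the others had one, and from 8 kb up every region did, 262 in large clusters and 121 in the others. From 4 kb up this share thus had almost no room to differ. Active Motif peaks covered 68.7% of the bases at 8 kb or more in large clusters, against 64.2% in the others. In each narrower class they covered less in large clusters, such as 54.6% against 56.1% at 4 to 8 kb. The Wilson intervals cover counting error over regions, which are not replicates, so no test was made.

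**Figure D3:**
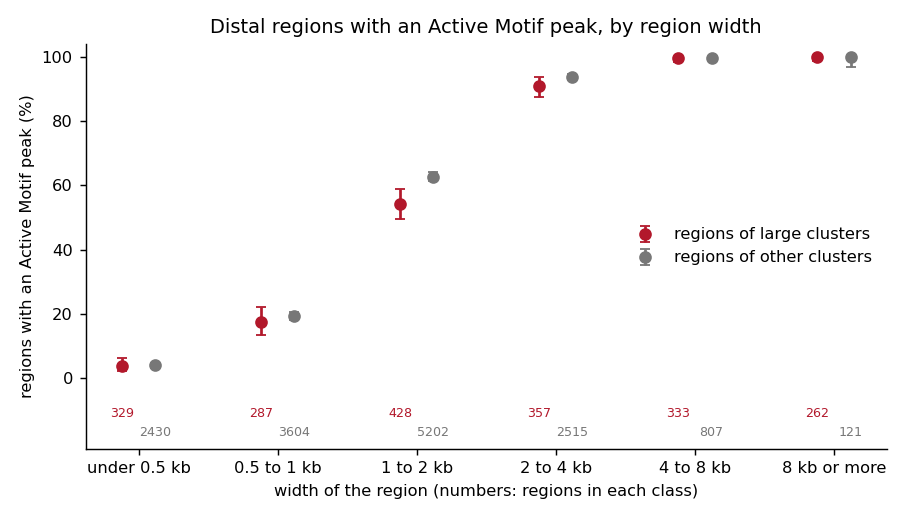
Share of distal regions with an Active Motif peak (%), by width of the region, for regions of the large clusters (red) and of the other clusters (grey), with 95% Wilson intervals and the number of regions below each point. Both sets climb together with width, and at 1 to 2 kb the large clusters are lower (54.2% against 62.7%).

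Among the members the Active Motif share ran between 12.3% and 91.5%. The highest was at Klf6, a zinc finger factor, where a single region of 18.1 kb (chr13:5858600-5876665) was covered over 17.6 kb in replicate 1, 18.01 kb in replicate 2 and 16.5 kb in the Active Motif library. Nceh1 followed with 86.1%, and then a cluster over Bcl6, a transcriptional repressor, with 85.8%. The lowest share was at the downstream cluster of Pparg, with 12.3%, and then at Lyplal1 (12.6%) and Susd6 (17.5%). The 7 clusters under 20% joined a median of 7 regions with a widest region of 5.43 kb, and replicate 1 covered a median of 55.0% of them. The 8 clusters over 80% had a median of 1.5 regions with a widest region of 18.7 kb, and replicate 1 covered 96.4%. Over all 298, the Active Motif share had a Spearman correlation of 0.68 with the replicate 1 share, of 0.53 with the mean region width and of -0.41 with the number of regions, which share the same bases and are given as a description. The largest fold enrichment in a cluster correlated at 0.69 between the Active Motif library and replicate 1, at 0.65 between the Active Motif library and replicate 2, and at 0.67 between the 2 replicates.

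The loci of Pparg, the gene of the nuclear receptor that sets AM identity, and of Rxra, the gene of its partner RXRα, show this spread. The Pparg cluster at the TSS (chr6:115411067-115436575) held 19.3 kb in 3 regions, of which 15.3 kb lay in replicate 1, 19.3 kb in replicate 2 and 10.1 kb in Active Motif peaks. The downstream cluster (chr6:115452300-115491374), within the Pparg gene, held 16.3 kb in 9 regions, with 8.61 kb in replicate 1, 16.2 kb in replicate 2 and 2.01 kb in the Active Motif library. Its strongest peaks were also lower, with a largest fold enrichment of 29.2 and 28.7 in the replicates and 6.49 with the Active Motif antibody, against 65.7, 50.4 and 31.9 in the cluster at the TSS. This Active Motif value of 6.49 was the lowest of the 298.

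The Rxra cluster (chr2:27687086-27745497) held 37.5 kb in 14 regions, covered over 26.5 kb in replicate 1, 36.7 kb in replicate 2 and 11.1 kb in the Active Motif library. Its Active Motif share of 29.6% was thus below the lower quartile of the members, and Active Motif peaks lay in 5 of its 14 regions. Its strongest peak was high in all 3 libraries, with a fold of 74.6, 52.5 and 30.3 for replicate 1, replicate 2 and Active Motif in that order. The region that held this peak covered a TSS of Rxra, so promoter and distal acetylation cannot be told apart there. Bhlhe40, which encodes a transcriptional repressor, was the nearest gene to an intergenic cluster of 16.0 kb in 11 regions (chr6:108686702-108724057), with 14.01 kb in replicate 1, 14.7 kb in replicate 2 and 5.93 kb in Active Motif peaks.

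**Figure D4:**
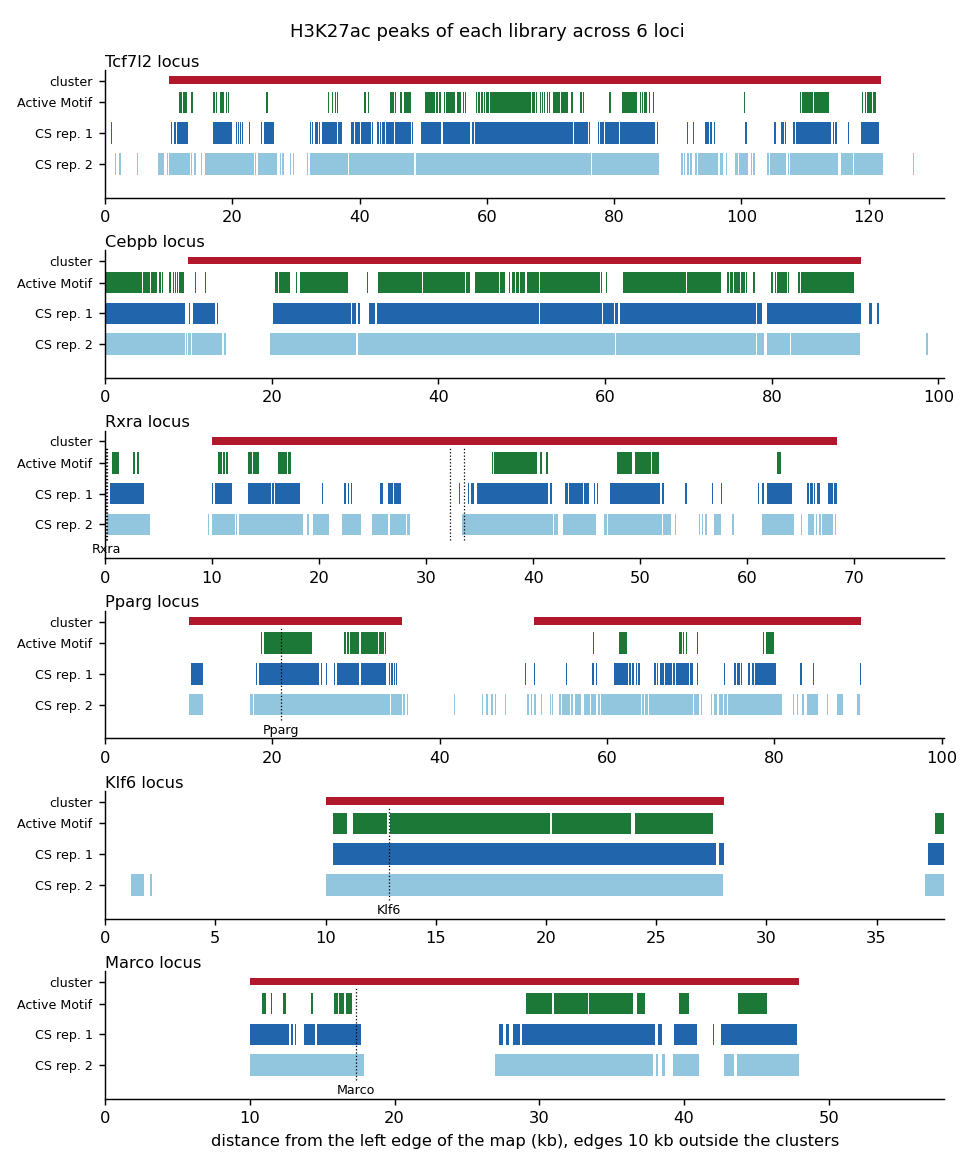
Peaks of the Active Motif library (green) and of Cell Signaling (CS) replicates 1 and 2 (blue, light blue) over 6 loci, by distance in kb from the left edge, with the large clusters as red bars and protein-coding TSSs as dotted lines, each gene named once. Active Motif peaks fill most of the Klf6 cluster (91.5%) and leave most of the downstream Pparg cluster empty (12.3%), and acetylation beside a cluster that is not under its bar was proximal to a TSS, not shared or too far away to be joined.

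Genes of 6 lists, 201 symbols of which 200 matched the annotation, were looked up in the clusters by nearest TSS or gene body overlap. A large cluster was found for 39 of the 200 (19.5%), against 324 of all 21644 protein-coding genes (1.5%). A gene needs a distal cluster of any size to be counted, which 167 listed genes had against 5860 of all genes. Of these, 23.4% of the listed genes and 5.53% of all genes had a large cluster. The count was 16 over the 197 clusters that cover no protein-coding TSS, an alternative chosen after seeing the data (7 transcription factors, 3 AM identity genes, 2 niche receptors, 1 lipid gene, 1 phagocytosis gene and 2 inflammatory genes), and 17 where whole regions had to lie over 3 kb from every TSS. The share of all genes under these stricter settings was not counted, so these counts cannot be set against the 1.5%. The lists were drawn up with earlier results of these data known, and the shares are a description.

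A large cluster was found for 25% of AM identity genes and 1.5% of all genes. Of the 32 AM identity genes, 29 had a distal cluster of any size, and 5.53% of all genes with such a cluster had a large one. Transcription factors of macrophages and AMs, the longest list, had 14 of 55 (25.5%). Besides Tcf7l2, Cebpb, Rxra, Pparg, Klf6, Bhlhe40 and Egr2 they were Myc (25.6 kb, between genes at 67.3 kb), Fos, a subunit of AP-1 (25.4 kb), Tfeb and Tfec of the MITF family that controls lysosome genes (24.3 and 20.6 kb), the ETS factor Elf1 (21.2 kb), the small MAF protein Maff (18.7 kb) and Nfe2l2, the antioxidant regulator NRF2 (16.8 kb). Several factors central to macrophages were not among them. The largest cluster at Spi1, the gene of PU.1, was 1 region of 13.5 kb, 81.5% of it in Active Motif peaks, and those at Id2, Mitf, Zeb2, Klf4 and Runx1 held 14.7, 14.4, 12.97, 10.99 and 10.7 kb. Cebpa (4.11 kb), Irf8 (2.75 kb) and Bhlhe41 (1.77 kb, with no Active Motif peak) were far below the threshold. Nr1h3, the gene of LXRα, had no distal cluster at all, although its promoter had an Active Motif peak. The rule left out regions with a midpoint within 3 kb of any TSS and gave an intergenic cluster only to its nearest gene. A small or absent cluster thus does not mean that a listed gene had little acetylation.

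AM identity genes had 8 of 32. The largest was at Ccl6, a chemokine, with 41.5 kb, followed by Atp6v0d2, a proton pump subunit, with 36.3 kb, Lpl, lipoprotein lipase, with 33.2 kb, Marco, a scavenger receptor, with 26.7 kb, Lima1 with 23.2 kb, Olr1, a receptor for oxidised lipoprotein, with 22.8 kb, Trim29 with 21.7 kb and Plet1 with 21.6 kb. At Marco (chr1:120497704-120535673) the 5 regions were covered over 24.0 kb in replicate 1, 26.0 kb in replicate 2 and 12.1 kb in the Active Motif library. The Marco TSS lay inside these acetylated bases, so promoter and distal acetylation cannot be told apart there. Other defining genes of AMs had small clusters, such as Itgax, which encodes CD11c (5.03 kb), Chil3 (1.83 kb) and Siglecf (1.29 kb). The clusters of the last 2 held no Active Motif peak, but the promoters of Itgax, Chil3 and Siglecf each had one. Krt79 (14.4 kb), Cdh1 (13.5 kb) and Car4 (11.2 kb) came nearer to the threshold.

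Receptors and mediators of niche signals had 5 of 27, namely Tnfrsf1b, Tgfbr2, the type II receptor for TGF-β (34.9 kb), Notch2 (31.6 kb), Il17ra (25.2 kb) and Il10ra (17.6 kb). At Tgfbr2 (chr9:116123337-116183747) the bases covered were 28.3 kb in replicate 1, 34.8 kb in replicate 2 and 22.0 kb in the Active Motif library. The genes of the GM-CSF receptor had smaller clusters, of 7.29 kb at Csf2rb and 2.32 kb at Csf2ra, and Csf1r had 0.627 kb. Csf2rb, Csf2ra and Csf1r each had an Active Motif promoter peak.

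Lipid handling genes had 3 of 31, which were Abcg1, Abca1, another cholesterol exporter (15.4 kb), and Lipa, the lysosomal acid lipase (21.5 kb). Phagocytosis and lysosome genes had 5 of 29, which were the protease Ctsd (29.0 kb), the apoptotic cell receptors Mertk and Axl (25.1 and 24.4 kb), the mannose receptor Mrc1 (21.9 kb) and the hexosaminidase subunit Hexa (17.6 kb). Inflammatory genes and their feedback had 4 of 26, which were the receptors Tlr4 and Tlr2 (20.4 and 18.7 kb), the phosphatase Dusp5 (19.1 kb) and Cd83 (15.8 kb), and Tnfaip3, a feedback inhibitor of NF-κB, had 14.7 kb. The 12 clusters of these 3 lists had Active Motif shares between 35.9% at Axl and 70.1% at Lipa.

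Marker genes of AMs were held by 3 of 10 (Marco, Pparg and Plet1). Among 50 markers of other cells, 10 each of other tissue macrophages, monocytes and neutrophils, lung epithelium, lymphocytes, and endothelium and fibroblasts, none had a large cluster. Of all genes 1.5% had one, so a count of 0 in 50 lies near that background. The largest cluster at any of the 50 was 8.17 kb at Acta2 and then 6.75 kb at Cx3cr1, and 36 had no distal cluster. An Active Motif promoter peak was present at 9 of the 10 AM markers and at 2 of the 50 others, P2ry12 and Csf3r. Of all protein-coding genes, 40.9% had such a peak.

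**Figure D5:**
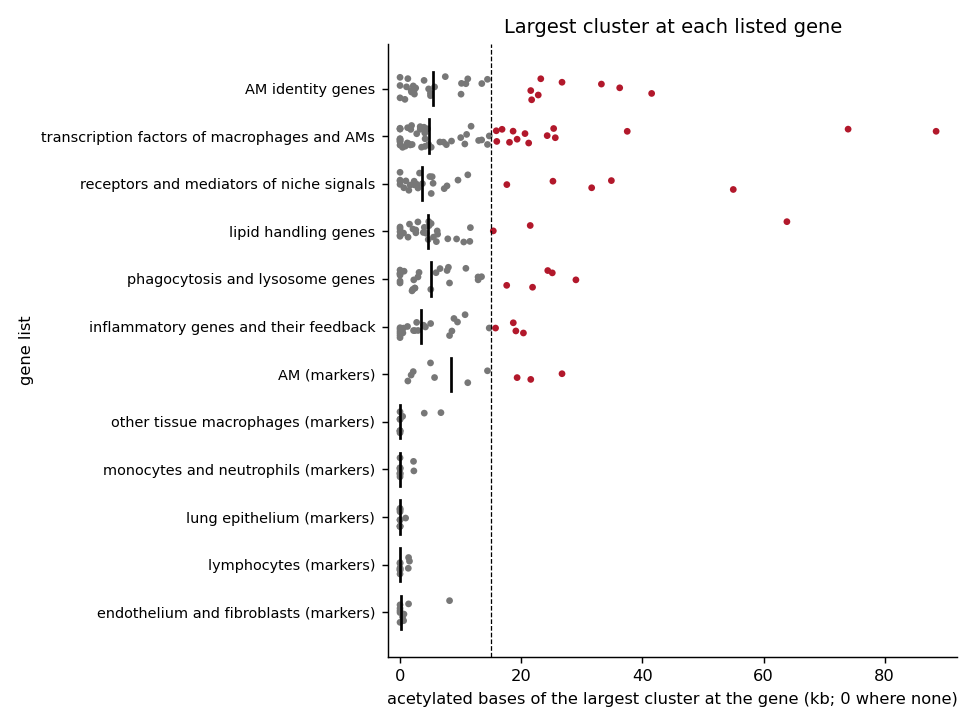
Acetylated bases (kb) of the largest distal cluster that is nearest to or overlaps each gene of the 6 lists and 6 marker sets, 1 point per gene (0 where it has none), with the median of each list as a black line. Points at or above 15 kb (dashed line) are red, and all points of the 5 marker sets of other cells lie under it, at 8.17 kb or less.

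The promoter of the gene next to a large cluster was mostly acetylated in the Active Motif library. An Active Motif peak lay within 1 kb of a TSS of the nearest gene for 268 of the 298 clusters (89.9%, 85.99 to 92.9%), against 6305 of the 8810 others (71.6%, 70.6 to 72.5%), and for 40.9% of all protein-coding genes. With each gene counted once the shares were 89.9% of 276 genes (85.7 to 92.9%) against 65.8% of 5209 (64.5 to 67.03%). In the 197 clusters that cover no protein-coding TSS it was 84.8% (79.1 to 89.1%). Over the classes of size the share was 67.3% under 2 kb, 75.4% at 2 to 5 kb, 80.7% at 5 to 10 kb, 84.5% at 10 to 15 kb, 88.5% at 15 to 20 kb, 89.1% at 20 to 30 kb and 94.0% at 30 kb or more. Neighbouring size classes from 10 kb up overlapped in their intervals.

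For 30 clusters the nearest gene had no Active Motif promoter peak, and 8 of these overlapped another gene that had one. The largest was that of Pdcd1lg2 (63.2 kb, midpoint 49.4 kb from the TSS), followed by Iqsec1 (41.4 kb), Ldhal6b (38.1 kb, within Arid1b), Cd200r3, a relative of the CD200 receptor (36.6 kb), and Mfsd4b1 (29.7 kb, within Slc16a10). In 13 of the 30 no gene body was overlapped. The most distant was 236 kb from the nearest protein-coding TSS, that of Tprg.

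Of 17 short words of known factors, 14 were less frequent and 3 more frequent at summits of large clusters than at those of other clusters. The windows were centred on summits of a histone mark, and factor binding was not measured in these libraries. A share of words is thus not a count of bound sites. Many of these differences lay within counting error. At replicate 1 summits the Wilson intervals lay apart only for the PU.1, AP-1, IRF, NF-κB and C/EBP-ATF words. These intervals treat each window as independent, and they may be too narrow because several summits can share a region. The 4682 windows of large clusters came from 1996 regions, and the 22045 of other clusters from 14679. Windows of 200 bp at replicate 1 summits held the PU.1 word GAGGAAGT in 2.63% of 4682 windows of large clusters (2.21 to 3.13%), against 4.21% of 22045 windows of other clusters (3.96 to 4.49%). The AP-1 word TGANTCA was in 7.75% (7.02 to 8.55%) against 8.93% (8.56 to 9.31%), the pair of GAAA words spaced by 2 bases of IRF factors in 2.65% (2.23 to 3.15%) against 3.85% (3.60 to 4.11%), and the NF-κB word GGAANTTCC in 0.320% (0.194 to 0.528%) against 0.712% (0.609 to 0.832%). For these 4 words the share was lower in the large clusters under each of the 3 alternative windows too, but the intervals of the 2 sets overlapped under 2 of the 3 for PU.1 and NF-κB, under all 3 for AP-1 and under 1 for the IRF pair. The C/EBP-ATF word TTGCATCA was in 0.470% (0.311 to 0.710%) against 0.835% (0.723 to 0.964%). It was lower under all 3 alternatives too, with overlapping intervals in each. With replicate 2 summits, the PU.1 word was in 2.21% (1.67 to 2.93%) against 2.68% (2.44 to 2.95%). The nuclear receptor half-site AGGTCA was in 13.1% (12.2 to 14.1%) against 13.8% (13.4 to 14.3%), an order that held in 2 of the 3 alternatives, and the TCF/LEF word TTCAAAG in 5.13% (4.53 to 5.80%) against 4.46% (4.19 to 4.74%). The E-box CACGTG, bound by BHLHE40 and MITF factors, was in 2.52% (2.11 to 3.01%) against 2.94% (2.72 to 3.17%), again in 2 of the 3, and the RUNX word TGTGGTT in 5.79% (5.15 to 6.49%) against 6.39% (6.07 to 6.72%). The SMAD and RBPJ words were the other two with a higher share in large clusters, 7.33% against 7.09% and 4.61% against 4.51%. Median GC content was 44.5% in both sets.

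Over all acetylated bases the PU.1 word occurred 108 times per Mb in large clusters (exact Poisson 95% interval 101 to 116), against 162 times per Mb in the others (157 to 168), with a GC content of 45.4% against 45.2%. This difference went with region width. In regions of 8 kb or more there were 103 per Mb (92.5 to 113) against 106 (88.2 to 125), at 4 to 8 kb 105 (90.7 to 120) against 119 (109 to 130), at 2 to 4 kb 111 (91.3 to 133) against 149 (140 to 159), and under 2 kb 136 (114 to 162) against 194 (186 to 203). The word was thus sparser in wide regions of either set, and it was sparser in large clusters among regions under 4 kb. The direct repeat of AGGTCA spaced by 1 base occurred 4.09 times per Mb (2.78 to 5.80) against 3.31 (2.61 to 4.13), a difference within counting error.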

How the data were processed

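Per the methods of the study, Cutadapt trimmed the reads, Bowtie2 placed them on mm10, Picard flagged duplicates and samtools dropped these and improper pairs, after which MACS3 called peaks against input at a q-value of 0.05, 1 list per library. The submitters' processing notes also name CASAVA and bcl2fastq 2.20.0.422. For each peak the authors deposited a score, a ratio to background (fold enrichment), the p-value and q-value on a −log10 scale, and the summit offset. Weaker peaks pass in a deeper library, and the lists hold no read counts, so depth was not used here.

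From these lists the clusters were built on chromosomes 1 to 19 and X with the GENCODE vM21 basic annotation (75451 TSS positions of all gene types). Overlap needed 1 bp. Nearest genes were those of the protein-coding TSS nearest to the midpoint. Coordinates count from 1, and sequence came from GRCm38, the assembly of mm10. The members and the gene lists were chosen with earlier results of these data known. With regions that are not replicates and 1 Active Motif library, no test was made, and 95% Wilson intervals (for words per Mb, exact Poisson intervals) cover counting error only. Each list of peaks was 1 sample, and the 2 Cell Signaling replicates were compared by peak extent alone.

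The text names the 20 largest clusters, those at listed genes, 3 on either side of the threshold, and 3 with the highest and 3 with the lowest Active Motif share. Other genes, the printed windows and the words per Mb were chosen after their values were seen. Alternatives covered the joining distance, the size and TSS thresholds, the TSS set, the q-value, the peak number, each replicate alone, promoter windows and word windows. The cluster rule and the word search were tested on simulated data. Python 3.11.15, pandas 2.3.3, SciPy 1.17.1 and pysam 0.24.0 were used.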

Additional observations from a re-analysis of the deposited data

How the results depend on the processing

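The count of 298 large clusters became 608 at a threshold of 10 kb and 159 at 20 kb, 161 with midpoints over 10 kb from a TSS, 184 with whole regions over 3 kb from every TSS, and 190 when bases had to lie in peaks of both replicates. With 1 replicate alone it was 192 to 354. With 2 alternatives chosen after seeing the data it was 197 without clusters that cover a protein-coding TSS, and 62 from the Active Motif list alone, which overlapped 57 of the 298. The count stayed within 1.5 times under a shorter and a longer joining distance (218 and 346), both other TSS sets (253 and 379), midpoints over 1 kb from a TSS (446), a q-value of at most 1e-05 (262) and equal numbers of peaks (285).

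The share of regions with an Active Motif peak (60.8%) was 57.8% with whole regions over 3 kb from every TSS, 64.0% with equal numbers of peaks, 77.3% at a q-value of at most 1e-05 and 30.01% when at least 50% of the region had to be covered. The peak number and q-value settings applied to the Cell Signaling lists, while the full Active Motif list was counted. The share was 30.4% to 36.4% with 1 replicate alone, where regions no longer needed a peak of the other replicate. The share of clusters whose nearest gene had an Active Motif promoter peak was 89.9%. It was 84.8% without clusters covering a protein-coding TSS and 93.5% from the Active Motif list alone. In that last setting the same list gave both the clusters and the promoter peaks, so it is no independent check. The 39 listed genes with a large cluster became 63 at 10 kb. They were 17 with midpoints over 10 kb from a TSS and also 17 with whole regions over 3 kb from every TSS. They were 16 without clusters covering a protein-coding TSS, 9 from the Active Motif list alone, and 28 to 42 with 1 replicate alone.

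No paired analysis was possible because no result comes from a test between groups. Of the 17 words, 11 kept the direction of their difference under the 3 alternative windows and 6 did not in at least 1. Where no peak is listed, the mark may still lie under what that library could detect.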
